A study of Homo sapiens with 18 samples.

Results

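Autosomal genes that span more than 500 kb of the genome and were expressed in HAP1 cells are described here. HAP1 is a human cell line with close to 1 copy of each chromosome, grown from KBM-7 cells of a chronic myeloid leukaemia. Span is the distance from the first to the last annotated base of a gene, introns included, on GRCh38. A gene was taken as expressed where its mean level over all 18 libraries was at least 1 CPM, the usual unit for a gene's counts after every library is scaled to the same fixed total. Of 59251 genes in the count tables, 350 autosomal genes were over 500 kb, and 181 of these, with SYT1 left out, met the level. The genes were thus chosen by their mean level in these same libraries, so levels are given as a description, without a test. Of the 181, 179 kept a mean of at least 1 CPM when any single group was left out; FGF12 and CACNA2D3 did not. As these reached 1 CPM only through parental groups, their differences that involve those groups are not described singly. Both remain in the counts and medians below. CACNA2D3 is among the genes called higher in the parental line without doxycycline, and among those whose change at day 9 was below the parental change. FGF12 is among those called lower in the deleted line than in the parental line with doxycycline. A mean of at least 1 CPM was held by 165 of the 181 in every group, and all 181 passed the filter on low counts of the test used below.

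A pair of HAP1 lines was compared, in groups of 3 libraries. The parental line, whose label names no modification, was measured with 15 ng/mL doxycycline and without it. In the other line, SARS2 was deleted and a SARS2 transgene with 1 FLAG tag was added; it is called the deleted line below. SARS2 is the mitochondrial seryl-transfer RNA synthetase, which attaches serine to transfer RNAs for protein synthesis inside mitochondria. The deleted line was measured with 15 ng/mL doxycycline and at 3, 6 and 9 days after the drug's removal, per the labels. How the locus was deleted, whether the line is 1 clone, and for how many days the parental line went without the drug were not given in the sources available. Nor do the labels say that replicates were separate cultures, so the p-values reflect the spread of these libraries alone, which may be technical.

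Very long genes are mostly intron. RNA polymerase II needs hours to cross them, so their messenger RNA appears late after a gene is switched on, and their output is known to depend on factors that keep the polymerase moving, relieve the twisting of DNA, and protect the transcript from ending early in an intron. Many encode cell adhesion, synaptic and signalling proteins and are best known from neurons. Several lie in common fragile sites, regions that break when DNA replication is slowed.

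The 181 genes spanned a median of 701.8 kb, from 501.4 kb in PPFIA2 to 2304 kb in CNTNAP2, and CNTNAP2, PTPRD, DLG2, CSMD1 and EYS were the 5 longest. Exons made up a median of 1.88% of the span, against 16.1% in the 13872 other autosomal genes at or above 1 CPM. The median number of separate exon blocks was 28.0 against 9.0, and the longest stretch between exons had a median of 166.5 kb against 7.8 kb. The level per kb of exon, on the scale of CPM divided by exonic length, had a median of 1.07 in the long genes and 6.79 in the others. By that scale ROBO1, a guidance receptor, was highest at 26.7, followed by RANBP2 of the nuclear pore at 19.0, the histone deacetylase HDAC9 at 18.2, the dystrophin relative UTRN at 16.1 and the polarity protein PARD3 at 12.2. Chromosome 3 held 26 of the genes, 3.06% of its expressed genes, and chromosome 13 held 10, which were 3.75% of its own. Just inside the limit of span were PPFIA2 (501.4 kb), SPOCK3 (501.6 kb) and ERC1 (506.0 kb), and just outside it DIAPH3 and CPQ (498.3 kb each) and ITPR2 (497.8 kb). At the limit of level, FGF12 (1.09 CPM) and CACNA2D3 (1.20 CPM) were among those inside, and ATRNL1 (0.975 CPM), SHANK2 (0.956 CPM) and KCNQ5 (0.931 CPM) outside.

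Annotation decides some of these spans. Of the 181 genes, 172 are protein coding, 5 are long noncoding RNAs and 1 is a transcribed pseudogene in RefSeq's table (GRCh38.p14). The remaining 3 are the immune receptor loci IGK, IGL and TRB, each counted as a single block over its whole locus, so that any read inside the locus was counted. In GENCODE release 29 of the same build, 162 were over 500 kb as well, 13 were shorter and 6 were not listed by that name. RANBP2 is 1123 kb in the count tables and 66.3 kb in GENCODE 29; POLR1C is 944.3 kb and 52.7 kb. Each result below holds these genes unless it says otherwise.

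Libraries held 66850705 to 111123481 counts. SARS2 itself stood at 43.2 to 46.2 CPM in the parental line with doxycycline, 23.5 to 25.2 in the deleted line with it, 30.5 to 32.4 in libraries labelled day 3, 23.2 to 25.8 at day 6 and 34.0 to 48.1 at day 9. Relative to its own line with the drug, SARS2 was called higher at day 3 (log2 0.38) and day 9 (0.79) and not called at day 6 (0.03), and every direction below rests on the labels. The table does not separate transgene from endogenous reads. The 12 haematopoietic markers summed to at most 0.90 CPM in any library, with HBG1, HBG2, CD3E and MPO at 0 in all groups. The 12 neuronal markers summed to 61.9 to 141 CPM, nearly all of it TUBB3 and MAP2, with ELAVL4 at 0 in 5 of 6 groups, and the sum was lowest in the parental line without doxycycline (61.9 to 73.1) and at day 6 (78.0 to 86.0). The 10 epithelial markers summed to 40.8 to 70.5 CPM, with CDH1 at 0 in 3 groups. The 16 mesenchymal markers summed to 719 to 1190 CPM, mostly VIM, and the sum was highest at day 9 (1010 to 1190). From the deleted line with doxycycline to day 9, mean VIM went from 640 to 829 CPM and CDH2 from 60.2 to 73.2. ZEB1 went from 81.2 to 40.4, ZEB2 from 69.4 to 45.7 and PDGFRA from 38.7 to 26.4, so these markers did not move together. The part of any of these in the results below was not tested.

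In libraries labelled day 9, most of the long genes were lower than in the deleted line with doxycycline. By edgeR's quasi-likelihood test with Benjamini-Hochberg adjustment over all 21615 genes tested, and a call at an adjusted p under 0.05, 136 of 181 fell, 11 rose and 34 did not pass. Of all genes tested, 23.8% were called lower and 22.6% higher in this comparison, 46.4% in all. The median log2 fold change of the long genes was -0.67, a 1.59-fold lower level, against -0.01 over all genes tested. The fall was at least 2-fold in 49, and 1 rose by that much. They took 0.549% ± 0.0262 (SD, n = 3) of all counts before the removal of doxycycline from the deleted line. The share was 0.532% ± 0.0156 at day 3, 0.687% ± 0.0193 at day 6 and 0.356% ± 0.0529 at day 9, each with n = 3. In these bulk libraries, fewer cells of a type and less RNA per cell cannot be told apart.

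The 3 day 9 libraries were not alike. Taking in each library the median over the 181 genes of the log2 difference from the deleted line's doxycycline mean, replicates 1 and 2 stood at -0.75 and -0.86 and replicate 3 at -0.32. Replicate 3 also held the most counts of any library. All 3 were below the day 3 libraries (-0.08, -0.16 and -0.17) and the day 6 libraries (0.16, 0.24 and 0.23). Without replicate 3, 149 genes fell, 7 rose and the median was -0.89. In a fit of only the groups compared, 6 rose.

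**Figure D1:**
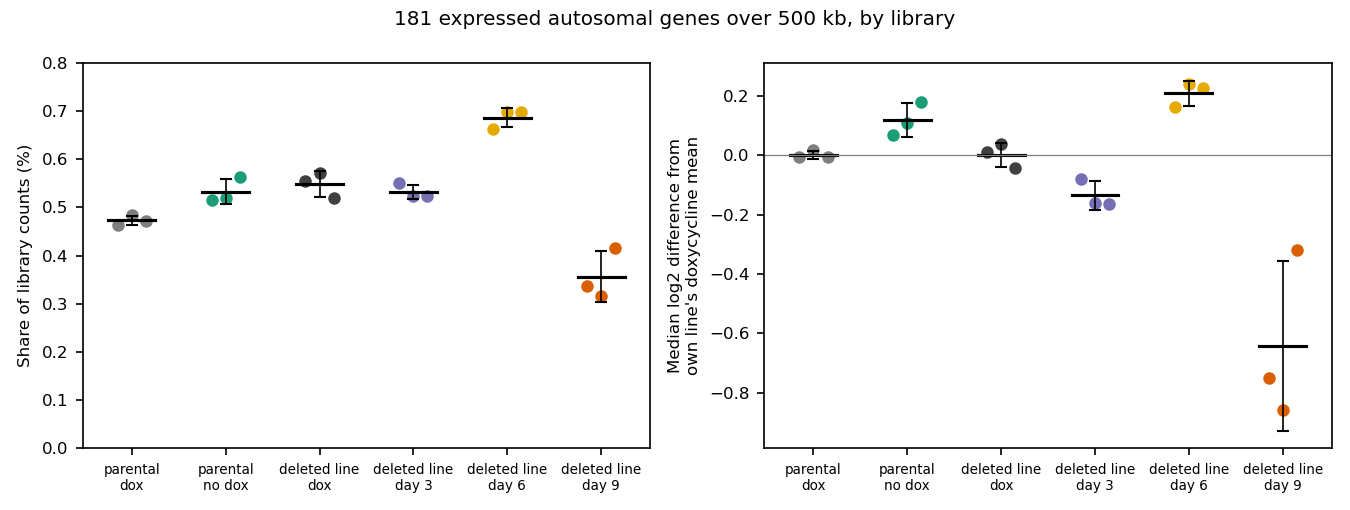
Left, the share of each library's counts assigned to the 181 genes over 500 kb (%); right, their median log2 difference from the mean of their own line with doxycycline. Points are single libraries, horizontal bars group means and vertical bars SD (n = 3). The day 6 libraries lie highest and the day 9 libraries lowest in both panels, with day 9 replicate 3 above the other day 9 libraries.

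RORA, a nuclear receptor of the circadian clock (chromosome 15, 60488284 to 61229302, minus strand), differed between groups in both directions. In the deleted line it stood at 49.5, 50.9 and 36.0 CPM under doxycycline, 30.5, 27.4 and 27.9 at day 3, 69.0, 113 and 83.6 at day 6, and 10.7, 10.2 and 9.93 at day 9. The groups of day 3, day 6 and day 9 did not overlap with doxycycline or with each other. By the edgeR test RORA fell at day 3 (log2 -0.67 ± 0.138 SE, adjusted p = 0.0042), rose at day 6 (0.96 ± 0.138, adjusted p = 5.8e-05) and was 4.43-fold lower at day 9 (-2.15 ± 0.145, adjusted p = 3.6e-09). SEMA5A, an axon guidance protein (chromosome 5, 9035033 to 9546075, minus strand), held 1.59, 1.23 and 0.670 CPM with doxycycline and 0.133, 0.211 and 0.287 at day 9, a 5.52-fold fall (-2.46 ± 0.295, adjusted p = 1.9e-06). EYS, a protein of photoreceptors, held 2.37, 2.69 and 2.09 CPM with doxycycline and 0.509, 0.432 and 0.524 at day 9 (-2.29 ± 0.175, adjusted p = 1.4e-08). In both genes every day 9 library lay below every library with doxycycline. SYN3, a synapsin of synaptic vesicles, held 72.2, 66.0 and 61.9 CPM with doxycycline and 18.7, 17.9 and 23.2 at day 9, a 3.34-fold fall (adjusted p = 1.1e-09 by the edgeR test).

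Other members among the 10 largest falls at day 9 included SLC44A5, a choline transporter-like protein (log2 -1.95), AKAP6, a kinase anchor of the nuclear envelope in muscle (-1.82), the secreted protein NELL1 (-1.73) and the adhesion receptor ADGRB3 (-1.70). The largest value was that of the immunoglobulin kappa locus, IGK, at 7.43, 7.34 and 6.05 CPM with doxycycline and 0.664, 0.843 and 0.356 at day 9, an 11.2-fold fall (adjusted p = 1.7e-09, edgeR). IGK is a locus counted as 1 block, and which transcripts in it were read was not examined. Of the 39 genes at 1 to 5 CPM, 26 fell, of 66 at 5 to 20 CPM 56, and of 76 at or above 20 CPM 54, with medians of -0.69, -0.73 and -0.62.

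**Figure D2:**
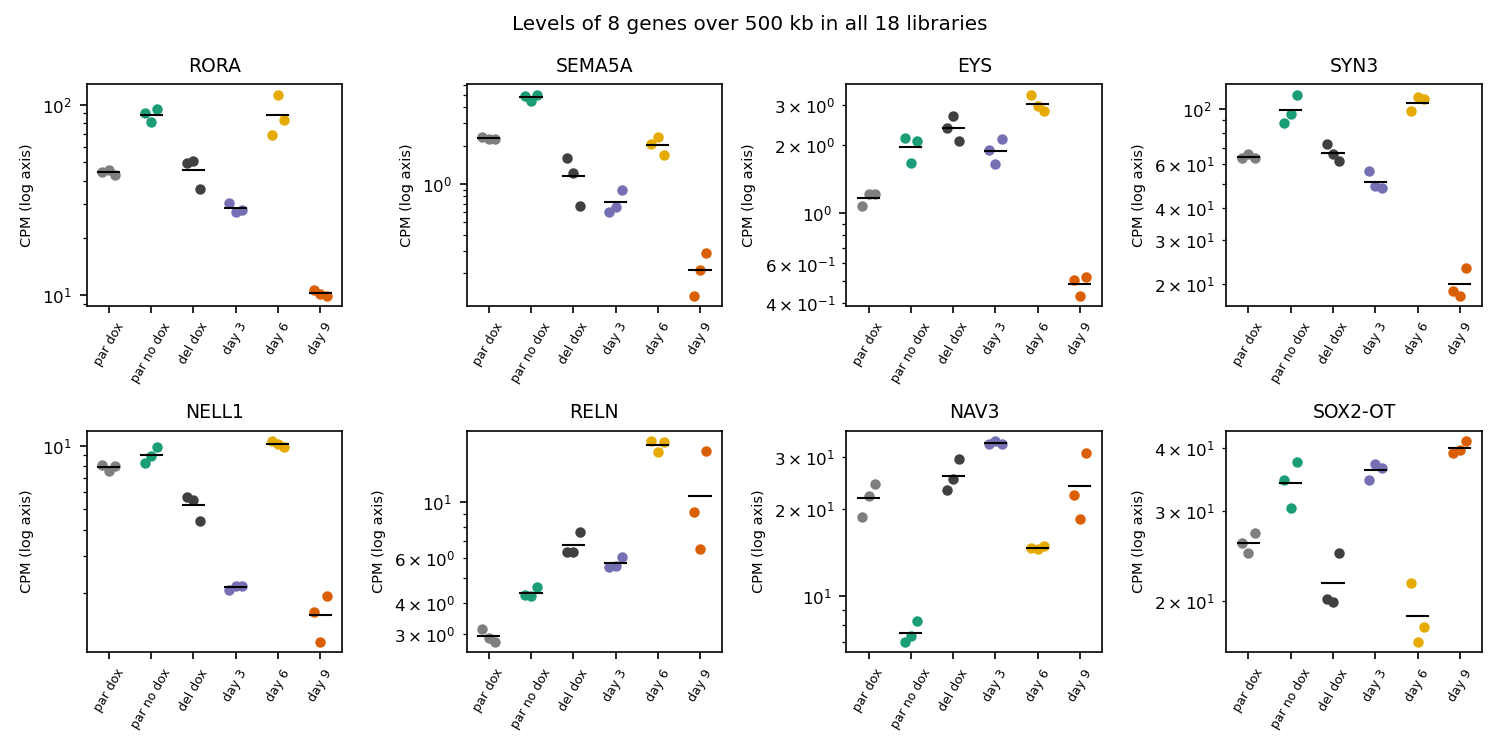
CPM on log axes, each panel with its own range, of 8 of the genes in all 18 libraries; par is the parental line, del the deleted line, points are libraries and bars group means. RORA, SEMA5A, EYS, SYN3 and NELL1 are lowest at day 9, RELN is highest at day 6, NAV3 is lowest in the parental line without doxycycline, and SOX2-OT is lower at day 6 than at days 3 and 9.

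Falls at day 9 were found in every group of roles. The lists of roles were assembled with earlier results of these data known, so their counts are a description. Of 21 genes of vesicle and membrane trafficking, 20 fell and none rose, with a median of -0.79; they included the exocyst subunit EXOC4 (-1.23), the Rab regulator RABGAP1L (-1.33) and PSD3 (-1.14), and ERC1 (-0.18) did not pass. Of 17 genes of phosphatases, kinases and signalling, 14 fell (median -0.75), among them the receptor phosphatases PTPRD (-1.003) and PTPRM (-1.06), the protein kinases C PRKCA (-0.85) and PRKCE (-0.92), the exchange factor KALRN (-1.12) and the phosphodiesterase PDE10A (-1.13). FGF12, PLCB1 and MAST4 did not pass. Of 29 adhesion and synapse genes, 20 fell and 3 rose (median -0.85). The list is not complete: CLSTN2 (0.97) and RELN (0.65), which rose, and SEMA3A (-1.38), which fell, are in no list. The fallers included the slit ligand SLIT3 (-1.61) and its receptors ROBO1 (-0.81) and ROBO2 (-0.93), the neuroligin NLGN1 (-1.28), the scaffolds DLG2 (-1.06) and DLGAP1 (-1.17) and the teneurins TENM2 (-0.71), TENM3 (-0.34) and TENM4 (-1.01).

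Among 22 genes of cytoskeleton and polarity, 16 fell and 1 rose (median -0.63). UTRN, which links actin to the membrane, held 252, 247 and 247 CPM with doxycycline and 118, 103 and 158 at day 9 (log2 -0.98). The polarity genes PARD3 (-0.63) and PARD3B (-0.59) also fell, whereas the ankyrins ANK2 (-0.33) and ANK3 (-0.16) did not pass. Of 19 genes of transcription, chromatin and RNA, 12 fell and 1 rose (median -0.51): HDAC9 (-0.77), KLF12 (-1.08), SMYD3 (-0.76) and BCAS3 (-1.64) fell, and FOXP1 (-0.08), ZFHX3 (-0.16) and MECOM (-0.26) did not pass. Among 13 channels, receptors and transporters, 10 fell and 1 rose (median -0.77), with the flippase ATP8A2 at -1.27 and the glutamate receptor GRIK2 at -0.77. Among 11 enzymes and matrix genes, 7 fell (median -0.52), among them the heparan sulfotransferase HS6ST3 (-1.06) and CDKAL1 (-0.52), which modifies transfer RNA, while the laminin chain LAMA2 (-0.20) did not pass. FBXL17 (-0.03), a subunit of a ubiquitin ligase, did not pass. Of the 47 genes in no list, 36 fell and 5 rose (median -0.53). These included FARS2, the mitochondrial phenylalanyl-transfer RNA synthetase, at -0.49 ± 0.113 (adjusted p = 0.0015, edgeR). The fall of FARS2 was not particular to day 9. Parental cells off the drug gave a call in the same direction (-0.37), as did the day 6 libraries (-0.33). The difference between its day 9 change and the parental change, -0.11, did not pass.

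The 11 genes that rose at day 9 were TRB, CLSTN2, POLR1C, SOX2-OT, HIVEP3, RELN, MTUS2, FAT3, CNTNAP2, ADGRL2 and TRPM3. In RELN, FAT3 and ADGRL2 the day 9 libraries overlapped those with doxycycline. The T cell receptor beta locus TRB, counted as 1 block, held 6.72, 7.28 and 9.63 CPM with doxycycline and 25.7, 24.0 and 29.9 at day 9, a 3.38-fold rise (adjusted p = 1.1e-08, edgeR). POLR1C, a subunit of RNA polymerases I and III whose span is short in GENCODE 29, held 20.5, 21.0 and 24.1 CPM with doxycycline and 39.9, 38.5 and 44.9 at day 9. The noncoding RNA SOX2-OT, which surrounds the pluripotency gene SOX2, held 20.2, 19.9 and 24.9 CPM with doxycycline and 39.0, 39.5 and 41.2 at day 9. All 3 were higher in each day 9 library than in any with doxycycline. HIVEP3, a zinc finger protein, held 3.65, 3.11 and 3.17 CPM with doxycycline and 6.05, 6.10 and 5.38 at day 9 (log2 0.82 ± 0.146 SE, adjusted p = 0.00014). CNTNAP2, a neurexin-family adhesion protein and the longest of the 181, rose by 0.42 (log2), and by 0.44 in the parental line without doxycycline. TRB, CLSTN2, SOX2-OT, RELN, MTUS2, FAT3 and TRPM3 were called higher in that parental comparison as well. POLR1C and HIVEP3 were called lower there, and ADGRL2 did not pass. At day 9 the rises of MTUS2 (0.55) and TRPM3 (0.21) did not pass under at least 1 alternative. In a fit of only the groups compared 6 genes rose, and RELN, FAT3 and ADGRL2 were not among them.

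**Figure D3:**
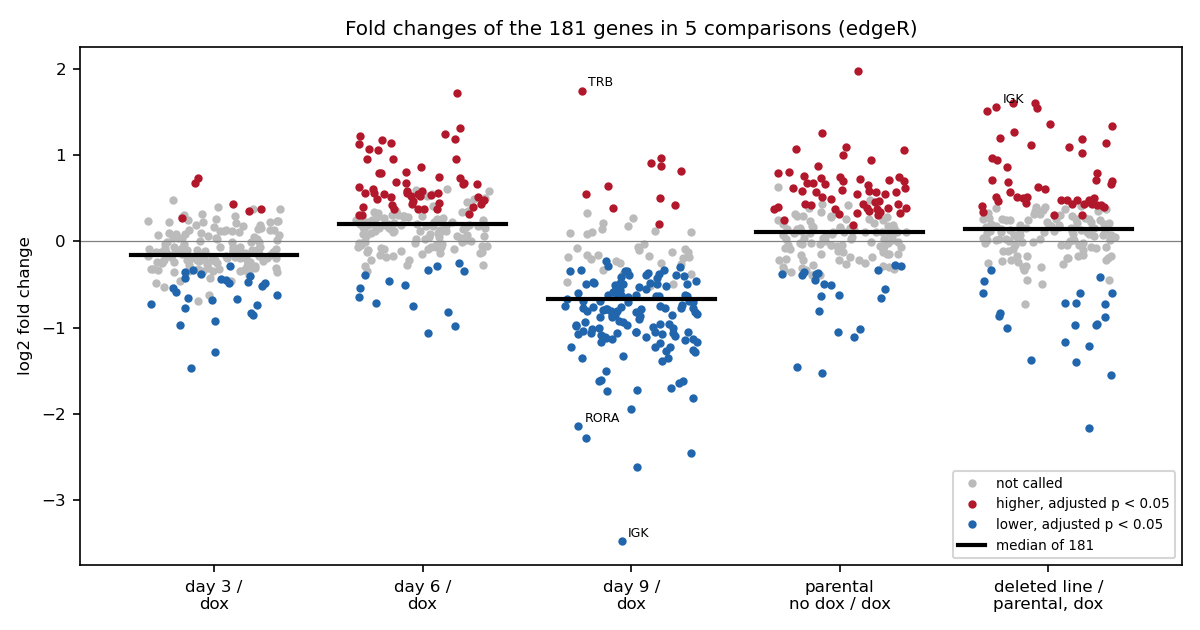
Log2 fold changes of the 181 genes in 5 comparisons, 1 point per gene, with the median as a black bar; red and blue points passed an adjusted p under 0.05 in edgeR's test and grey points did not. Horizontal position within a comparison is random. Most points at day 9 are blue, and at day 6 and in the parental comparison more points are red than blue.

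At day 6 the balance was the other way. Of the 181, 55 rose and 14 fell, where 14.0% of all genes tested were called higher and 14.0% lower, 28.1% in all. In expressed autosomal genes of 200 to 500 kb, 36.8% were called higher and 5.34% lower, beside 30.4% and 7.73% of the 181. The median of the 181 was 0.20 against 0.01 over all genes tested. Scaled by library size alone, 76 were higher and 8 lower, and the shares of all genes called under that scaling are not reported here. Among the largest rises were those of the secreted matrix protein RELN (log2 1.32), the calsyntenin CLSTN2 (1.25), the giant cadherin FAT3 (1.23), the transcription factor SOX6 (1.19), the muscarinic receptor CHRM3 (1.18), the calcium channel RYR2 (1.15), the phosphatase PTPRM (1.13), the microtubule protein NAV2 (1.07) and SLIT3 (1.06). RELN held 6.35, 6.33 and 7.59 CPM with doxycycline and 17.5, 15.8 and 17.3 at day 6 (adjusted p = 0.00012, edgeR). SLIT3 held 16.8, 14.0 and 11.8 CPM with doxycycline and 28.2, 30.8 and 30.1 at day 6 (adjusted p = 1e-05, edgeR). All 3 day 6 libraries lay above all 3 with doxycycline in each of these genes. Among the role lists, 10 of 17 phosphatase, kinase and signalling genes rose and none fell (median 0.53), as did 5 of 13 channels, receptors and transporters with none falling (0.30). Adhesion and synapse genes gave 10 higher and 2 lower of 29 (0.22), and trafficking genes 6 higher and 1 lower of 21 (0.25).

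The largest falls at day 6 were in the glycosyltransferase MGAT4C (log2 -1.06), the guidance ligands SEMA3A (-0.98) and SEMA6D (-0.75), NAV3 (-0.82) and the protocadherin PCDH9 (-0.71). PCDH9 held 41.0, 42.7 and 39.3 CPM with doxycycline and 23.5, 27.5 and 24.1 at day 6, all lower (adjusted p = 7.9e-05, edgeR). SEMA3A held 21.3, 19.7 and 21.2 CPM with doxycycline and 11.4, 10.4 and 9.58 at day 6, without overlap. RIMS2 of the presynaptic active zone also fell (-0.54). IGK (-0.65), MIR99AHG (-0.51), SGCD (-0.45) and ESRRG (-0.39) were called, but each lost its call when at least 1 library was left out. The counts rested partly on single libraries: the number lower was 9 without replicate 1, 8 without replicate 2 and 7 without replicate 3 of the deleted line with doxycycline, and 8 without day 6 replicate 2 and 7 without day 6 replicate 3. The number higher was 36 without replicate 3 of the deleted line with doxycycline. When a trend of counts with span was first removed from each library, a step that takes out by construction what sets these genes apart, the median became -0.09 with 30 higher and 45 lower.

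At day 3, 27 of the 181 fell and 6 rose, where 6.87% of all genes tested were called lower and 6.5% higher, and the median was -0.16. Among the largest falls were those of NELL1 (log2 -1.29), SLIT3 (-0.97), the uncharacterised LOC105375630 (-0.92) and IGK (-0.86). NELL1 held 5.72, 5.54 and 4.39 CPM with doxycycline and 2.07, 2.17 and 2.16 at day 3 (adjusted p = 8.3e-05, edgeR), so every day 3 library was lower. The rises were in SOX2-OT (0.74), TRB (0.68), POLR1C (0.44), PCDH9 (0.37), FOXP1 (0.35) and AUTS2 (0.27). POLR1C, PCDH9 and AUTS2 lost their calls without replicate 1 of the deleted line with doxycycline. PCDH9 also lost its call without any other single library of the groups compared. SOX2-OT held 34.6, 37.2 and 36.5 CPM at day 3. The number lower was 12 without replicate 1 and 15 without replicate 2 of the deleted line with doxycycline, and 13 without day 3 replicate 2 and 11 without day 3 replicate 3; the number higher was 3 without replicate 1 of the deleted line with doxycycline. A fit of only the groups compared gave 22 higher and 60 lower, no low-count filter 14 higher, and removal of the trend with span 22 higher and 17 lower. The shares of all genes called under these alternatives are not reported here, so these counts cannot be read as particular to the long genes. The comparisons of days 3, 6 and 9 share their control libraries.

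Between day 6 and day 9, which do not share libraries with each other, 143 of the 181 fell and 8 rose, where 30.2% of all genes tested were called lower and 28.6% higher, 58.8% in all. This comparison was added after the data were seen. The median was -0.81, and 77 genes fell by at least 2-fold. With the trend with span removed, 63 were higher and 63 lower, with a median of 0.036. The falls of SEMA5A (log2 -3.26), RORA (-3.11), IGK (-2.84), NELL1 (-2.69), AKAP6 (-2.69) and SLIT3 (-2.67) were among the largest. SLIT3 held 4.39, 4.07 and 5.51 CPM at day 9, below each day 6 library. Those that rose included TRB (1.73), POLR1C (1.19), SOX2-OT (1.09), HIVEP3 (0.98), PCDH9 (0.85) and NAV3 (0.70).

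In the parental line, whose label names no transgene, 55 of the 181 were higher and 21 lower without doxycycline than with it. Of all genes tested, 21.0% were called higher and 18.4% lower. The share called higher was 30.4% in the 181. It was 31.2% in expressed autosomal genes of 200 to 500 kb and 38.0% at 100 to 200 kb. The median was 0.11 against 0.03 over all genes tested. Among the largest rises were those of the contactin CNTN4 (log2 1.10), SEMA5A (1.07), CLSTN2 (1.06) and RORA (1.01), followed by the GABA receptor subunit GABRG3 (0.94), SLC44A5 (0.87), FAT3 (0.80) and the proteoglycan SPOCK1 (0.80). RORA held 44.4, 45.5 and 42.5 CPM with the drug and 90.3, 81.0 and 94.9 without it (adjusted p = 1.7e-05, edgeR). SEMA5A held 2.36, 2.26 and 2.26 CPM with it and 4.94, 4.49 and 5.04 without it, again without overlap.

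The largest falls in the parental line were in NAV3 (log2 -1.53), MGAT4C (-1.46), the galactosyltransferase B3GALT1 (-1.11), the regulator of G protein signalling RGS7 (-1.05), the microRNA host MIR99AHG (-1.02), SEMA3A (-0.81) and LAMA2 (-0.65). NAV3, a microtubule protein, held 18.7, 22.1 and 24.3 CPM with doxycycline and 6.96, 7.31 and 8.26 without it, a 2.89-fold difference (adjusted p = 5e-07, edgeR). MCTP1 (-0.64), MALRD1 (-0.62) and ENOX1 (-0.56) were called, but not when any of several single libraries was left out; RGS7 was not called when the fit held only the groups compared. With a trend of counts with exonic length removed from each library, the median in the parental line was -0.03, with 33 higher and 39 lower.

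Changes at day 6 and in the parental line come from separate libraries. Across the 181 genes, which are not independent replicates, their log2 fold changes had a Pearson r of 0.556 and a Spearman rho of 0.473; in the 13872 other expressed autosomal genes these were 0.511 and 0.566. Between day 9 and the parental line the same values were -0.263 and -0.304 in the long genes and -0.457 and -0.481 in the others. Between day 3 and the parental line they were -0.414 and -0.435 in the long genes and -0.521 and -0.494 in the others. The interaction term of the fit tested the difference of the changes. At day 6, 17 of the 181 changed more upward in the deleted line than in the parental line and 11 more downward, where 5.49% and 7.14% of all genes tested were called. At day 9, 11 did so upward and 120 downward, where 24.4% and 27.3% of all genes tested were called, with a median difference of -0.73. The number upward at day 6 was 41 in a fit of only the groups compared and 34 with no low-count filter, and removal of the trend with span gave 10 upward and 24 downward. Shares of all genes called under these settings are not reported here. At day 9 that removal gave 46 upward and 66 downward, with a median difference of -0.0354. The number downward at day 6 was 7 without any 1 of the 3 parental libraries with doxycycline and 6 without day 6 replicate 1, and the number upward at day 9 was 6 without parental doxycycline replicate 2.

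With doxycycline in both lines, 48 of the 181 were higher in the deleted line and 22 lower, where 9.32% of all genes tested were called higher and 9.97% lower, and the median was 0.15. The contactin CNTN4 (log2 1.61), the sidekick adhesion protein SDK1 (1.61), IGK (1.56), LAMA2 (1.55) and FRMD4A (1.52) were the most raised. LAMA2 held 16.3, 17.0 and 15.9 CPM in the parental line and 47.5, 48.1 and 48.9 in the deleted line (adjusted p = 2e-08, edgeR), groups that lie far apart. Among the most lowered were the zinc finger gene ZNF385D (-2.17), RYR2 (-1.55) and MTUS2 (-1.21). ZNF385D held 18.3, 16.4 and 17.3 CPM in the parental line and 3.97, 3.53 and 4.05 in the deleted line, a 4.50-fold difference (adjusted p = 5.4e-10, edgeR). A fit of only the groups compared gave 77 higher, and removal of the trend with span 94 higher with a median of 0.33. For both, the share of all genes called is not reported here. Clonal differences and the transgene's effect cannot be told apart in this design.

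Set among all expressed autosomal genes, the long genes were the end of a graded series at day 9. The median log2 fold change was 0.11 in 3627 genes up to 10 kb, 0.08 in 5817 of 10 to 50 kb, -0.08 in 2190 of 50 to 100 kb, -0.19 in 1470 of 100 to 200 kb, -0.37 in 768 of 200 to 500 kb and -0.67 in the 181. The share called lower went from 17.4% in the shortest class through 62.5% at 200 to 500 kb to 75.1% in the 181. At day 6 the medians ran from -0.16 in the shortest class to 0.19 at 200 to 500 kb and 0.20 in the 181. In the parental line they ran from -0.14 to 0.14 at 100 to 200 kb, and then 0.10 and 0.11. Span among the 181 themselves did not order the changes: the rank correlation (Spearman's rho) of span with the log2 fold change was 0.0239 at day 9 and 0.0407 at day 6 across n = 181 genes measured in the same libraries. The 90 genes of 500 to 700 kb had a median of -0.63 at day 9, the 60 of 700 to 1000 kb -0.77 and the 31 over 1000 kb -0.59. The 162 that are over 500 kb in GENCODE 29 as well gave 121 lower and 9 higher at day 9, with a median of -0.68, and the 13 that are shorter there gave 11 lower and 1 higher, with a median of -0.63. With a trend of counts with span removed from each library, which by construction takes out this gradient, 56 of the 181 were lower and 45 higher at day 9, with a median of -0.11.

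**Figure D4:**
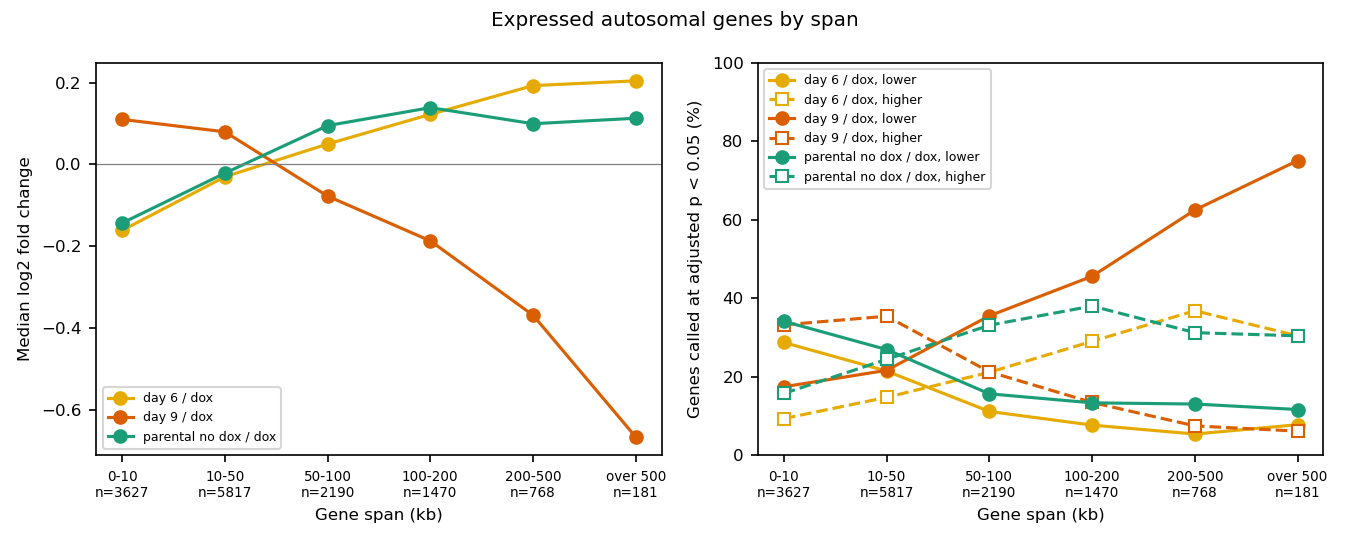
Expressed autosomal genes in 6 classes of span (kb, with the number of genes), for day 6, day 9 and the parental comparison. Left, the median log2 fold change; right, the percentage called lower (filled circles, solid lines) and higher (open squares, dashed lines). At day 9 the median goes down and the percentage called lower goes up with each class, to -0.67 and 75.1% in the genes over 500 kb.

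Short genes that lie inside the long ones allow a look at the same stretches of chromosome. Within the spans of 72 of the 181 lie 153 tested genes under 50 kb. At day 9, 33 of these rose and 14 fell, with a median of 0.19, while the 72 long genes around them gave 4 higher and 52 lower, with a median of -0.66. The nested genes called higher were thus 21.6%, near the 22.6% of all genes tested, and those called lower 9.15%, against 23.8% of all genes tested. POLR1C, whose span differs between annotations, held 19 of the 153, of which 11 rose and 1 fell. In the 64 hosts that are over 500 kb in GENCODE 29 too, 20 of 119 short genes rose (16.8%) and 13 fell (10.9%), with a median of 0.17. These hosts gave 3 higher and 47 lower (median -0.70). How far few counts limited the calls in the short genes was not tested. Inside DLGAP1 (log2 -1.17) the antisense genes DLGAP1-AS1 (1.72) and DLGAP1-AS2 (2.57) rose, and inside IMMP2L (-0.81) the leucine-rich repeat gene LRRN3 rose (1.02); these 3 were picked after their values were seen. As counting by strand is not stated, reads of a short gene and of its host cannot always be told apart. The nearest tested short gene outside each end, within 500 kb, gave 219 genes, of which 49 rose and 51 fell at day 9 with a median of -0.01; these shares, 22.4% and 23.3%, are near those of all genes tested. At day 6, 14 of the 153 nested genes rose (9.15%) and 22 fell (14.4%), where 14.0% of all genes tested were called each way. Their median was -0.14 beside 0.23 in their hosts.

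**Figure D5:**
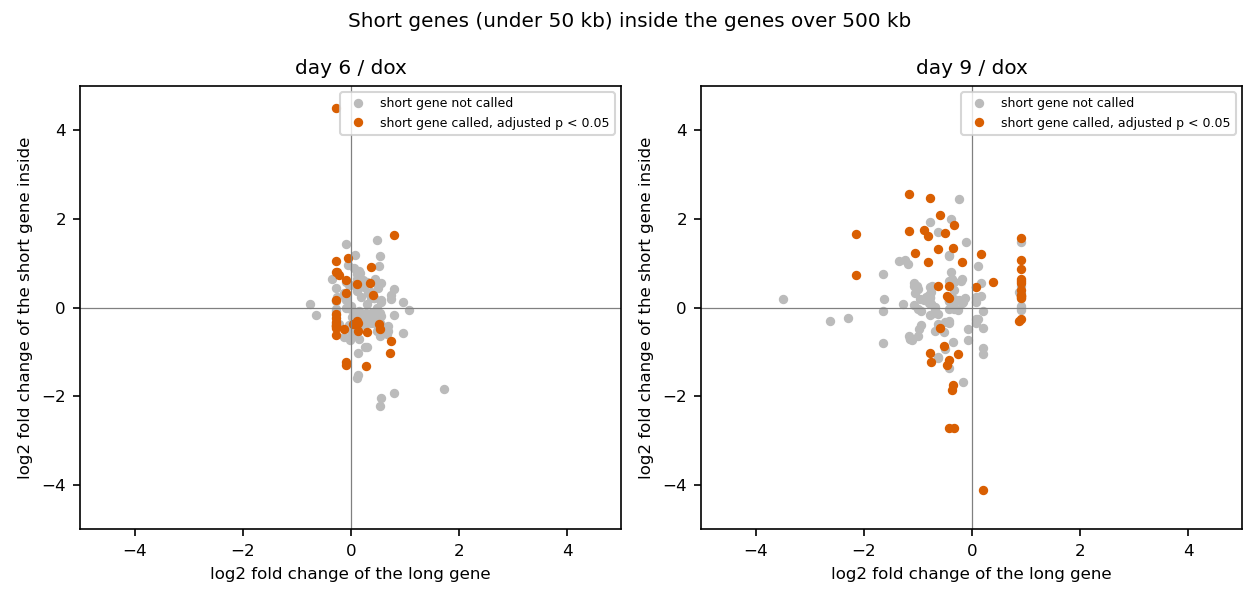
Each point is a gene under 50 kb that lies inside one of the long genes; the x axis gives the long gene's log2 fold change and the y axis that of the short gene, at day 6 (left) and day 9 (right). Coloured points are short genes that passed an adjusted p under 0.05. At day 9 most points lie left of 0 on the x axis but on both sides of 0 on the y axis, and the column at the right is POLR1C with its 19 short genes.

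Promoter sequence was looked at because many of the long genes moved together. RefSeq promoters (GRCh38.p14, 250 bases before to 50 after a start) were matched for 148 of the 181. In 109 of the 148 the RefSeq start lies within 1 kb of the outermost start in the count tables, and in 20 the distance from the RefSeq start to the far end of the gene is 500 kb or less. RORA is one of these: its RefSeq start is 601.8 kb inside the outermost start, 139.2 kb from the far end. Which start was used in these cells was not examined. Those 20 genes gave 14 lower and 1 higher at day 9 (median -0.62), and the other 128 gave 97 lower and 8 higher (median -0.68). Promoters with at least 20 CG dinucleotides were 55.4% of the 148, against 74.2% of 10458 other expressed autosomal genes and 41.2% of all 27305 promoters in the table. The long genes with such promoters gave 62 lower and 6 higher of 82 at day 9 (median -0.57), and those without 49 lower and 3 higher of 66 (median -0.72). Below are the promoters of 2 genes that fell at day 9, RORA (chr15:60627481-60627780, minus strand) and SEMA5A (chr5:9546026-9546325, minus strand), and of 2 that rose, HIVEP3 (chr1:42035885-42036184, minus strand) and SOX2-OT (chr3:181056430-181056729, plus strand). They are shown since each pair holds a promoter rich and a promoter poor in CG, which is in capitals.
RORA: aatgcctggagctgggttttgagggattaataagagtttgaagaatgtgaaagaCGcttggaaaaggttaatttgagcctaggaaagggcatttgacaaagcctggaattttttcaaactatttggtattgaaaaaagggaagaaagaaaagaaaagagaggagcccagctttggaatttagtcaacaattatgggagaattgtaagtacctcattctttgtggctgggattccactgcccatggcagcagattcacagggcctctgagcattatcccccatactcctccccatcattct
SEMA5A: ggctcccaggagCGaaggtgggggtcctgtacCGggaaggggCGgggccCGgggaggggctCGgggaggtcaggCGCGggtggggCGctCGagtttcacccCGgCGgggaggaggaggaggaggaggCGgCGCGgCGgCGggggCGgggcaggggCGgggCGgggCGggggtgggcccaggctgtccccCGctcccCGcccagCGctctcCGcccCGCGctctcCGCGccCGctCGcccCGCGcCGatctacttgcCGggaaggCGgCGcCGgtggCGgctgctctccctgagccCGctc
HIVEP3: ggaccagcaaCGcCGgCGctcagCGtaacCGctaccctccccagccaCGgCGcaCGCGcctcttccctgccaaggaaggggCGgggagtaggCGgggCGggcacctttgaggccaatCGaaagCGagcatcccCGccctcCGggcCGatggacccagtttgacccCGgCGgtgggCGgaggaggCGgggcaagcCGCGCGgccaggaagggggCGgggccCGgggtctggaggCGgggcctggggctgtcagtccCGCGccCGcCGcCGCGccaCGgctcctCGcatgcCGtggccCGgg
SOX2-OT: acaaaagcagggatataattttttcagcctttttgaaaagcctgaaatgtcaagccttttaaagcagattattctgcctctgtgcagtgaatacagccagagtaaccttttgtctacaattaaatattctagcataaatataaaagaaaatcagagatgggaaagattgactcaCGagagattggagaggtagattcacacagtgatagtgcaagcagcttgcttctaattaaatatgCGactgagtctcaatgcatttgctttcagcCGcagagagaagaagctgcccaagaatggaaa
RORA's window holds 1 CG and SOX2-OT's 3, while SEMA5A's holds 39 and HIVEP3's 37. As these genes were chosen to hold both kinds, they do not show how often either kind fell or rose. The letters TATAAA, searched on both strands, were in 9.46% of the 148 promoters, 5.17% of the other expressed genes' and 12.0% of all in the table. TGATGNAA was in 4.73%, 1.58% and 3.67%. A match of letters is a description of these windows.

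Genes of common fragile sites made up 17 of the 181, from a list assembled with earlier results known. At day 9, 12 fell and 1, CNTNAP2, rose (median -0.77), beside 75.1% lower in all 181 and 23.8% lower in all genes tested. The falls included those of RORA (-2.15), SDK1 (-1.11), DLG2 (-1.06), MAGI2 (-1.01), CCSER1 (-0.85), the mitochondrial inner membrane peptidase subunit IMMP2L (-0.81), NBEA (-0.79), PTPRG (-0.77), PARD3B (-0.59), GPHN (-0.42) and the tumour suppressor WWOX (-0.39). FHIT, the gene at the most used fragile site, was at -0.16, LRP1B at -0.37 and AUTS2 at 0.11, and these did not pass. At day 6, 7 rose and none fell (median 0.49), beside 30.4% higher in all 181 and 14.0% in all genes tested, with RORA, PARD3B, DLG2, AUTS2, PTPRG and CCSER1 among the rises.

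Of the machinery for elongation, all 65 listed genes that were tested are shorter than 500 kb. At day 9, 26 rose and 10 fell (median 0.11), at day 6 14 rose and 17 fell (median -0.03), and in the parental line without doxycycline 7 rose and 20 fell (median -0.07). Of all genes tested, 22.6% were called higher and 23.8% lower at day 9, 14.0% each way at day 6, and 21.0% higher and 18.4% lower in the parental line. HEXIM1, which holds the elongation kinase P-TEFb inactive, rose most at day 9 (log2 1.41 ± 0.0889 SE, adjusted p = 1.7e-09), from 32.3 ± 1.52 CPM to 86.1 ± 10.9 CPM (SD, n = 3). The elongation factors SUPT6H (0.79) and SUPT5H (0.64) and the nuclear scaffold protein HNRNPU (0.71) also rose. MLLT3 (-0.73) and AFF4 (-0.30) of the super elongation complex and the topoisomerase TOP2B (-0.48) fell; MLLT3 itself spans 281 kb. At day 6 AFF1 (0.44), PCF11 (0.41) and CPSF1 (0.37) were among those that rose the most, and HNRNPU (-0.46), PAF1 (-0.43), SNRPC (-0.39) and NELFE (-0.38) fell the most. In the parental line TOP2A (0.57), CPSF6 (0.48) and NUDT21 (0.34) rose, and HNRNPU (-0.96), the kinase CDK9 (-0.76), PAF1 (-0.60) and MLLT1 (-0.57) fell. The part of these genes in the changes of the long genes was not tested.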

How the data were processed

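Gene expression was measured by 151-bp paired-end RNA sequencing of 18 HAP1 libraries in 6 groups of 3. The authors deposited raw read counts per gene with GRCh38 coordinates, per the file headers; cutadapt 2.3, featureCounts of Subread, HISAT2, DESeq2 and SAMtools are listed in the submitters' processing notes. The annotation release and the strand setting of the counting step were not given in the sources available. The names of the count columns end in HISAT2_RF. The rows of 16 genes were broken over lines and were rejoined, and 6 libraries held in more than 1 table were identical and used a single time.

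The rule of span and level was applied to column totals. Counts were tested for all genes together in edgeR 4.0.16 (R 4.3.3): filterByExpr left 21615 genes, libraries were scaled by TMM, all 18 libraries entered a quasi-likelihood fit with a mean for each group, and p-values were adjusted by Benjamini-Hochberg over all genes. Levels are CPM on TMM-scaled library sizes. Standard errors are those of the log2 fold change, and n = 3 throughout. The fit was tested on simulated data. For library medians 0.5 CPM was added. The members and lists were chosen with earlier results of these data known. Named are the 10 largest called changes each way whose groups did not overlap at day 6, at day 9, between them and in the parental line, 5 at day 3 and between the lines, 4 for differences of changes, the 5 longest, the 5 highest per kb of exon, the threshold's neighbours and all fragile site genes, of which some are not reported here; members named within role lists were chosen after their values were seen. Alternatives were library size alone, DESeq2 size factors, DESeq2 1.42.0, no filter, only the groups compared, a replicate block, removal of trends with exonic length or span (splines of 6 degrees of freedom), and leaving out each library. An alternative can change the calls of all genes. The shares of all genes called under the alternatives are not reported here, so a moved count cannot be read as particular to the long genes.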

Additional observations from a re-analysis of the deposited data

Results flagged for a closer look

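The change of the deleted line without doxycycline was set against that of the parental line, with edgeR's interaction term as the test of the difference and Benjamini-Hochberg adjustment over all genes tested. At day 6 the difference passed upward in 17 of the 181 genes and downward in 11; at day 9 it passed upward in 11 and downward in 120. RYR2 stood apart at day 6 by 1.54 on the log2 scale (adjusted p = 0.00065): it went from 2.59, 3.68 and 3.35 to 7.40, 6.05 and 7.82 CPM in the deleted line, and from 8.93, 9.89 and 9.33 to 6.54, 6.73 and 8.15 CPM in the parental line. The difference at day 6 was 0.89 in B3GALT1, 0.84 in TENM4 and 0.81 in KIAA1217, and -1.39 in IGK, -1.12 in RIMS2, -1.05 in PCDH9 and -0.92 in CNTN4. RIMS2 fell in the deleted line (11.9, 11.9 and 11.7 to 7.89, 8.12 and 8.34 CPM) and rose in the parental line (15.1, 13.2 and 12.2 to 20.3, 18.1 and 22.1 CPM). CNTN4 lost its call under 9 alternatives.

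At day 9 the differences were -4.23 in IGK, -3.54 in SEMA5A and -3.15 in RORA. These genes rose in the parental line without the drug and fell in libraries labelled day 9. Upward, the differences were 1.41 in NAV3, 1.27 in HIVEP3, 1.19 in POLR1C and 1.16 in RGS7. NAV3 fell in the parental line and its value at day 9, -0.12, did not pass, and RGS7 lost its call under 7 alternatives.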

How the results depend on the processing

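Of 372 recomputed counts and medians of the long genes, 309 stayed close to the reported value, 59 moved and 4 changed sign; of 1664 recomputed values of single genes, 1590 kept their call, 74 lost it and none changed sign. Replicate numbers share only a number (correlations of same-numbered libraries -0.0775 to 0.0697, none of 45 over 0.1; 3 libraries were closest to their own number). With the replicate block the genes higher and lower, and the median, were 8, 25 and -0.16 at day 3, 53, 15 and 0.20 at day 6, 11, 136 and -0.68 at day 9, and 54, 24 and 0.11 in the parental line; it changed none of the 112 calls of single genes that were recomputed, nor did DESeq2's Wald test; genes named only within role or fragile site lists were not recomputed. Library size alone gave 8 lower at day 6, 6 upward differences from the parental line at day 9, and a median of -0.95 from day 6 to day 9, where the median of all genes was -0.15. No low-count filter gave 14 higher at day 3 and 34 upward differences at day 6. A fit of only the groups compared gave 22 higher and 60 lower at day 3, 6 higher at day 9, 77 higher between the lines and 41 upward differences at day 6.

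With the trend with exonic length removed, higher, lower and median were 35, 22 and 0.058 at day 6 and 33, 39 and -0.034 in the parental line; the median was -0.49 at day 9, -0.56 (16 higher) from day 6 to day 9 and -0.40 (20 upward) for the difference at day 9, and 6 differences at day 6 were downward. With the trend with span removed, these were 22, 17 and -0.034 at day 3, 30, 45 and -0.089 at day 6, 45, 56 and -0.11 at day 9, 63, 63 and 0.036 from day 6 to day 9, 10, 24 and -0.10 for the difference at day 6 and 46, 66 and -0.0354 for that at day 9; 34 were lower in the parental line and 94 higher between the lines (median 0.33). This removal takes out by construction what defines these genes.

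Leaving out 1 library at a time gave 3 to 5 higher, 11 to 25 lower and medians of -0.18 to -0.14 at day 3; 36 to 56, 7 to 12 and 0.19 to 0.23 at day 6; 7 to 14, 120 to 149 and -0.89 to -0.56 at day 9; 7 to 10, 133 to 155 and -1.06 to -0.72 from day 6 to day 9; 44 to 53, 16 to 21 and 0.10 to 0.13 in the parental line; 41 to 45, 16 to 20 and 0.12 to 0.17 between the lines; 12 to 19, 6 to 12 and 0.09 to 0.16 for the difference at day 6; and 6 to 14, 115 to 141 and -0.90 to -0.64 for that at day 9. Genes near 1 CPM have few counts, which limits what can be called in them.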
